A study of Mus musculus with 24 samples.

Results

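Respiratory complexes II to V pass electrons from succinate and ubiquinol to oxygen and make ATP, and the 39 nuclear genes described here encode their subunits. They were chosen by symbol, as every gene with a probe set of its own on the array whose annotated symbol was that of a succinate dehydrogenase subunit (Sdha to Sdhd), cytochrome c1 (Cyc1), a gene starting with Uqcr, a numbered cytochrome c oxidase subunit (Cox4i, Cox5 to Cox8) or a gene starting with Atp5. The 39 were among 14754 genes with such a probe set, and 34 of them passed the filter on dim probe sets and were tested, among 5793 genes tested in all. Complex II held 4 of the 39, complex III 7, complex IV 16 and complex V, the ATP synthase, 12. The symbol of cytochrome c itself, Cycs, shared its probe set with another symbol and was left out. The rule also took Cox7a2l, a factor that joins complexes III and IV into supercomplexes, and Atp5mpl, a small proteolipid that copurifies with the ATP synthase.

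The muscle was the quadriceps, a thigh muscle of mostly fast fibres, of male mice of the strain C57BL/6J, spelled C56BL/6J in the sample labels. One Affymetrix array was made from each of 24 mice, 6 in each of 4 groups. All mice first ate a low fat diet for 3 weeks from the age of 9 weeks and were then assigned to diets at random. The high fat day 3 mice were 12 weeks old and had eaten a palm oil diet with 45% of its energy as fat for 3 days, and the low fat day 3 mice, of the same age, had eaten one with 10%. The high fat day 28 and low fat day 28 mice were 16 weeks old and had eaten the same diets for 28 days, so longer feeding and greater age coincide. Mouse numbers ran from 1751 to 1772 on high fat and from 2010 to 2025 on low fat, and the sets of animals and the diets cannot be told apart. The label of 1 array, low fat day 3 replicate 1, lacks the step against genomic DNA that the other labels describe.

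Complex II, succinate dehydrogenase, links the citric acid cycle to the respiratory chain, complex III passes electrons from ubiquinol to cytochrome c, complex IV passes them on to oxygen, and complex V makes ATP from the proton gradient that results. All of complex II is encoded in the nucleus, whereas complexes III, IV and V also hold subunits encoded in mitochondrial DNA, which no probe set of the table measured here. Slow and oxidative fibres hold more mitochondria than fast glycolytic ones. Some complex IV subunits exist as a muscle isoform (Cox6a2, Cox7a1, Cox8b in the mouse) and an isoform of most other tissues (Cox6a1, Cox7a2, Cox8a), and a piece of muscle holds the RNA of all its cells. Cox7a1 and Cox8b are known in brown fat as well.

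Levels are log2 of the intensity of a probe set, and they are compared between mice and not between genes. The genes used to check the label, Cyc1, Cox4i1 and Sdhb, were bright on every array, with log2 levels of 11.50 or more, 12.27 or more and 11.79 or more. All 34 tested genes exceeded the filter's log2 level of 4 on all 24 arrays. The 5 others exceeded it on 0 of 24 arrays and were not tested. They were Cox4i2 (mean log2 level 1.44), the lung isoform of subunit 4, the testis isoforms Cox6b2 (1.91), Cox7b2 (1.03) and Cox8c (1.16), and Atp5g1 (2.80), one of the genes for subunit c of the rotor ring. Of 6 genes listed as cardiac, Myh6, Myl7, Tnni3, Nppa and Tnnt2 did not pass the filter either. The other, Myl4, an atrial and embryonic myosin light chain, had a mean log2 level of 4.25 on high fat, against 2.83 on low fat at day 3, and of 4.23 on high fat, against 2.90 on low fat at day 28. No low fat array exceeded the filter's level, with a highest value of 3.47 at day 3 and 3.13 at day 28. The gene thus passed the filter only through high fat arrays, so no test of its diet difference is given.

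The sequences below show the starts of 5 of the genes on which the results turn: Sdhd and Atp5k, which rose after 3 days, Cox6a1 and Cox8a, which were lower after 28 days, and Cox8b, the muscle counterpart of Cox8a. Each is 300 bases from RefSeq on build GRCm38.p6, from 250 bases before the gene's start to 50 after it, printed 5′ to 3′ along the gene. All 5 genes lie on the minus strand, Sdhd at chr9:50603800-50604099, Atp5k at chr5:108434350-108434649, Cox6a1 at chr5:115348909-115349208, Cox8a at chr19:7217567-7217866 and Cox8b at chr7:140900397-140900696. Capitals mark matches, on either strand, to 4 motifs: TNAAGGTCA, bound by estrogen-related receptors, GCGCANGCG, bound by nuclear respiratory factor 1, CCGGAAG, bound by GA-binding protein and other ETS factors, and CCAAT.
Sdhd: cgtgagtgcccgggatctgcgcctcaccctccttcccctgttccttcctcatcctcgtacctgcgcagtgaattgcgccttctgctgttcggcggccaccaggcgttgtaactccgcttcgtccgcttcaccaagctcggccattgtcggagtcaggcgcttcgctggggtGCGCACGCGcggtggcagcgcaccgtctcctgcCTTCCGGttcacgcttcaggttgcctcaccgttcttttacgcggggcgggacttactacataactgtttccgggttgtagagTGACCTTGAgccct
Atp5k: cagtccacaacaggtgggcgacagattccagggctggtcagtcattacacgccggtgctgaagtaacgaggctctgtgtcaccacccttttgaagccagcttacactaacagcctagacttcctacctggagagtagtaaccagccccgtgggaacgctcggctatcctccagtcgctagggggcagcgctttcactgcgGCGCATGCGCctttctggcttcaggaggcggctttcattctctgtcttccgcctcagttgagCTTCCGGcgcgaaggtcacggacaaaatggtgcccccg
Cox6a1: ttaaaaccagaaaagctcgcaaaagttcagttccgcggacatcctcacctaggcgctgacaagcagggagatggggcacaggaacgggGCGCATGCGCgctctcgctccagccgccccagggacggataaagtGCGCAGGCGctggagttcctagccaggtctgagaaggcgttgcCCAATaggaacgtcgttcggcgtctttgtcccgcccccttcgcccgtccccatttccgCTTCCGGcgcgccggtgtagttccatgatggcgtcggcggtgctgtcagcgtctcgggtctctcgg
Cox8a: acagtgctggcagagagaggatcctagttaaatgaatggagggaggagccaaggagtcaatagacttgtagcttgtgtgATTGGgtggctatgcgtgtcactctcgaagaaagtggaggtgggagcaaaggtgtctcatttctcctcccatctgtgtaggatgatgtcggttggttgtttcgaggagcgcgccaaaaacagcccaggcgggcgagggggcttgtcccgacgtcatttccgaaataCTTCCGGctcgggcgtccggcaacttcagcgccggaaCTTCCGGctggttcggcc
Cox8b: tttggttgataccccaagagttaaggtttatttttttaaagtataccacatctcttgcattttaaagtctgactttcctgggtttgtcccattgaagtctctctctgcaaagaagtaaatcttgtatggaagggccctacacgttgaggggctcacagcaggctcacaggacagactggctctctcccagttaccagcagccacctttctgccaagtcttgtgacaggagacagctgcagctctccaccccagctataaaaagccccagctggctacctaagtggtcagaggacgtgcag
Of the 39 genes, 28 matched RefSeq promoters, with 30 starts between them, and all promoters numbered 32851. The motif GCGCANGCG stood in 7 of the 30 (23.3%, against 6.25% of all promoters), in Sdhd, Sdha, Uqcrc1, Cox6a1, Atp5g3, Atp5k and Atp5o. CCGGAAG stood in 9 of 30 (30.0%, against 8.86%), among them Sdhb, Sdhd, Uqcrh, Cox6a1, Cox8a, Atp5e and Atp5k. TNAAGGTCA stood in 2 of 30 (6.67%, against 1.28%), Sdhd and Atp5g3, and CCAAT in 15 of 30 (50%, against 37.4%), among them Cox6a1 and Cox8a. The window of Cox8b held none of the 4. No match overlapped a match to another of the motifs, and a match is a run of letters and not a shown binding site.

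After 3 days, some genes of each of the 4 complexes were higher on high fat than on low fat by a small amount, and none fell. In complex IV this was 1 of 12 (8.33%), near the 7.99% of all genes tested. Of the 34 tested, 11 rose (32.4%, against 7.99% of all genes tested) and 0 fell (against 6.87%), at an adjusted p under 0.05 in limma with Benjamini-Hochberg adjustment over 5793 genes. At an unadjusted p under 0.05, 21 were higher (61.8%, against 15.0% of all genes tested) and 0 lower (against 14.4%). The fitted change was positive for 31 of 34 (91.2%, against 49.1% of all genes tested), and its median was 0.14 on the log2 scale, against -0.01 over all genes tested. The rises ran from 0.14 to 0.31 on the log2 scale, that is from 10.4% to 23.9% of the level on low fat. Most of the 34 were bright, and no share over bright genes alone was computed. Some rises depended on the normalization. After quantile normalization Sdhb was at 0.13, Uqcr10 at 0.15, Atp5g3 at 0.07 and Atp5j2 at 0.10, and none of these passed. Sdhd, Cyc1 and Atp5k still passed in that setting, and Cox7a2l passed in it as well.

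**Figure D1:**
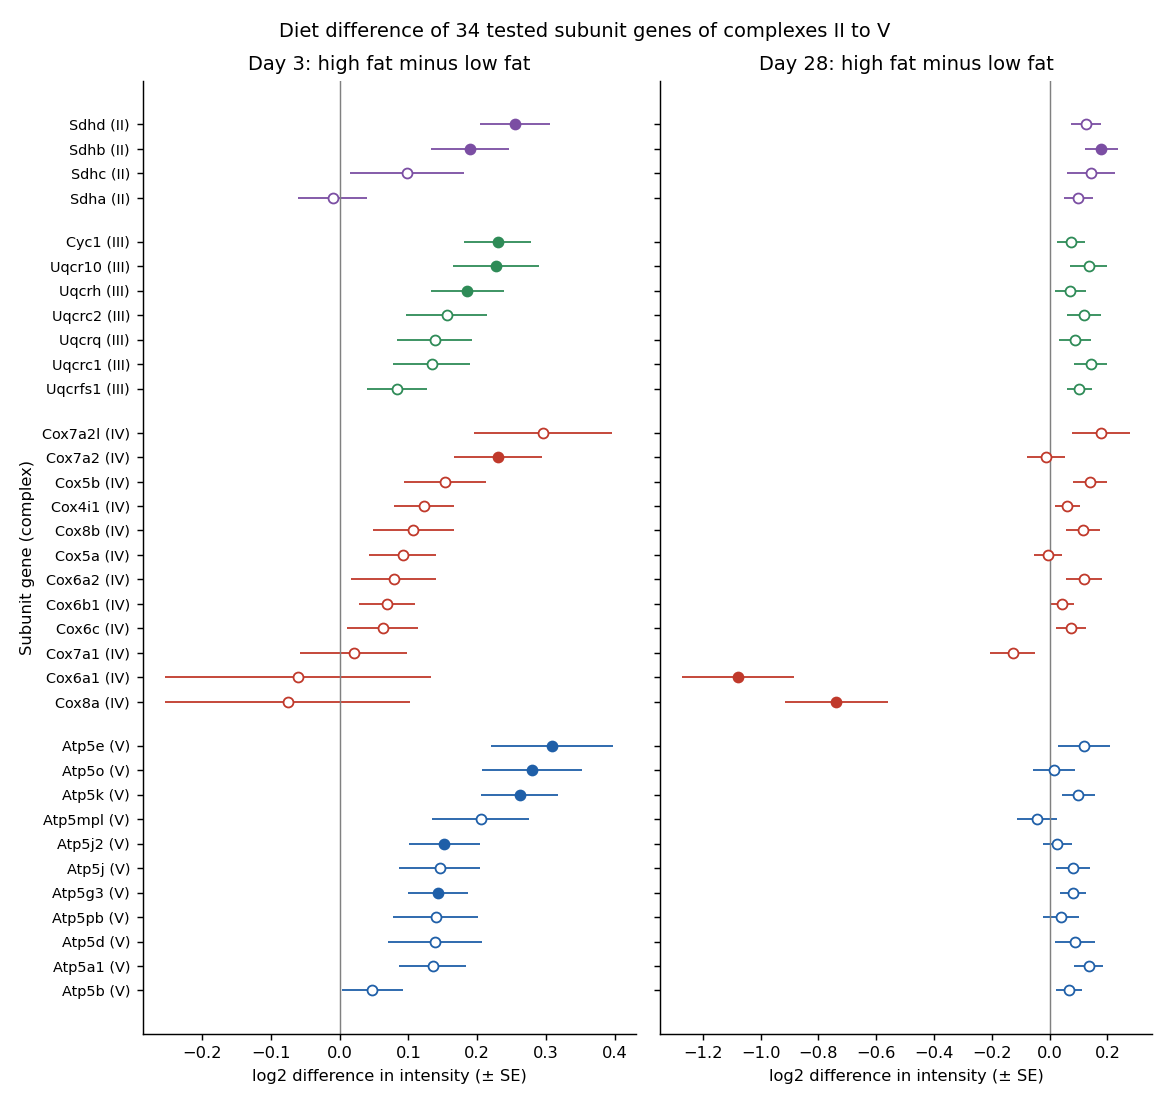
Fitted log2 change, high fat over low fat, of the 34 tested subunit genes at day 3 and day 28, grouped by complex, with bars for the SE of the limma fit over 24 arrays and filled points for genes that passed the test. At day 3 most genes lie right of 0 and 11 passed the test, whereas at day 28 Cox6a1 (-1.08) and Cox8a (-0.74) lie far left of the rest.

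In complex II, 2 of 4 genes rose (50%, against 7.99% of all genes tested) and the median change was 0.14. Sdhd, one of the pair of membrane anchors of the complex, had a log2 level of 10.04, 10.14 and 10.24 (lowest, median and highest of 6 mice) on high fat, against 9.77, 9.89 and 10.00 on low fat. Every high fat mouse was above every low fat mouse, and the rise of 0.26 ± 0.05 on the log2 scale (SE, n = 6 each; adjusted p = 0.00174 in limma) came to 19.4%. Sdhb, the iron-sulfur subunit, had 12.16, 12.22 and 12.31 on high fat, against 11.79, 12.06 and 12.18 on low fat. The groups met at their edges, with 5 of 6 high fat mice above all low fat mice, and the rise was 0.19 ± 0.06 (adjusted p = 0.0290). Sdha, the flavoprotein that oxidises succinate, differed by -0.01 ± 0.05 (adjusted p = 0.913), and Sdhc, the other anchor, by 0.10 ± 0.08 (adjusted p = 0.454).

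In complex III, 3 of 7 genes rose (42.9%, against 7.99% of all genes tested), all 7 fitted changes were positive and the median was 0.16. Cyc1, the cytochrome that hands electrons to cytochrome c, had log2 levels of 11.77, 11.85 and 11.99 on high fat, against 11.50, 11.65 and 11.75 on low fat. The groups did not overlap, and the rise was 0.23 ± 0.05 (adjusted p = 0.00268), or 17.3%. Uqcr10, a small structural subunit, had 11.05, 11.15 and 11.27 on high fat, against 10.71, 10.94 and 11.07 on low fat, a rise of 0.23 ± 0.06 (adjusted p = 0.0167). Uqcrh, the hinge protein between cytochrome c1 and cytochrome c, rose by 0.19 ± 0.05 (adjusted p = 0.0222). For each of these last genes 5 of 6 high fat mice lay above every low fat mouse. The 4 that did not pass were the core proteins Uqcrc1 (0.13) and Uqcrc2 (0.16), the Rieske iron-sulfur protein Uqcrfs1 (0.08) and the small subunit Uqcrq (0.14), with adjusted p-values of 0.0761 to 0.210.

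In complex V, 5 of 11 genes rose (45.5%, against 7.99% of all genes tested), all 11 fitted changes were positive and the median was 0.15. Atp5k, subunit e of the membrane part, had log2 levels of 11.41, 11.49 and 11.58 on high fat, against 11.15, 11.22 and 11.33 on low fat. The groups did not overlap, and the rise was 0.26 ± 0.06 (adjusted p = 0.00327), or 19.9%. Atp5o, the subunit of the peripheral stalk that confers sensitivity to oligomycin, had 11.13, 11.25 and 11.37 on high fat, against 10.86, 10.95 and 11.12 on low fat. These groups did not overlap either, and the rise was 0.28 ± 0.07 (adjusted p = 0.0120). Atp5e, the epsilon subunit of the central stalk, had the largest fitted change of the 34, 0.31 ± 0.09 (adjusted p = 0.0221), but only 1 of 6 high fat mice lay above every low fat mouse. Atp5g3, which encodes the subunit c that was measured above the filter, rose by 0.14 ± 0.04 (adjusted p = 0.0301), and Atp5j2, subunit f, by 0.15 ± 0.05 (adjusted p = 0.0482). The call of Atp5j2 was fragile and held in only 4 of 33 other settings of the fit. The catalytic beta subunit Atp5b differed by 0.05 ± 0.04 (adjusted p = 0.50) and the alpha subunit Atp5a1 by 0.13 ± 0.05 (adjusted p = 0.0641).

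In complex IV, 1 of 12 genes rose (8.33%, near the 7.99% of all genes tested) and the median change was 0.09. Cox7a2, the isoform of subunit 7a found in most tissues, had log2 levels of 11.98, 12.08 and 12.25 on high fat, against 11.66, 11.85 and 12.05 on low fat. With 4 of 6 high fat mice above every low fat mouse, it rose by 0.23 ± 0.06 (adjusted p = 0.0192). Cox4i1, the common isoform of subunit 4, had 12.41, 12.50 and 12.55 on high fat, against 12.27, 12.37 and 12.49 on low fat, a difference of 0.12 ± 0.04 that missed the threshold (adjusted p = 0.0607). Cox7a2l, the supercomplex factor, differed by 0.30 ± 0.10 and just missed it (adjusted p = 0.0502). The muscle isoforms differed by 0.08 ± 0.06 for Cox6a2, 0.02 ± 0.08 for Cox7a1 and 0.11 ± 0.06 for Cox8b, with adjusted p-values of 0.421, 0.892 and 0.231. Cox6a2 had 12.20, 12.32 and 12.50 on high fat, against 12.11, 12.28 and 12.42 on low fat. Cox7a1 had 11.16, 11.32 and 11.42 on high fat, against 10.93, 11.28 and 11.50 on low fat, and Cox8b had 12.20, 12.34 and 12.45, against 12.13, 12.19 and 12.37. In all of these muscle isoforms the groups overlapped. The most negative fitted changes of the 34 were those of Cox8a, -0.08 ± 0.18 (adjusted p = 0.814), and Cox6a1, -0.06 ± 0.19 (adjusted p = 0.866). Cox8a had 5.53, 5.76 and 6.27 on high fat, against 5.11, 5.91 and 6.35 on low fat. Cox6a1 had 10.01, 10.29 and 10.95 on high fat, against 9.71, 10.42 and 10.95 on low fat, and in both genes the diets overlapped over most of the range. Whether the complexes differed from each other in their share of rises was not tested.

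**Figure D2:**
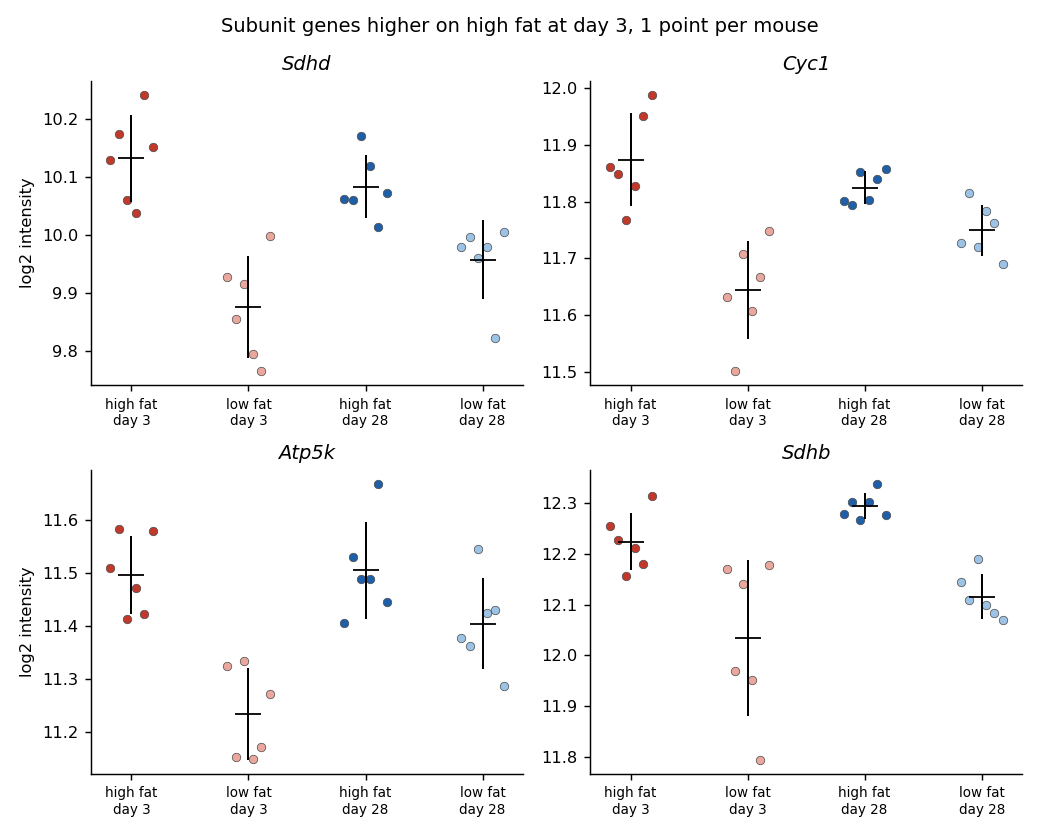
Log2 level of the probe sets of Sdhd, Cyc1, Atp5k and Sdhb in each of the 24 mice, high fat left of low fat at each day, 1 point per mouse with group mean and SD. At day 3 the high fat points lie above all low fat points for Sdhd, Cyc1 and Atp5k, and at day 28 for Sdhd and Sdhb.

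Diet groups that did not overlap at day 3 were found for 4 of the 34, Sdhd, Cyc1, Atp5k and Atp5o, all higher on high fat (3.50% of all genes tested), and for 0 in the lower direction (2.59%). Sdhd, Cyc1 and Atp5k passed the test in 32 of 33 settings of the fit, the exception being the slow fibre covariate described next. The count itself was less stable. It was 4 when the fit held only the day 3 arrays (Sdhd, Cyc1, Atp5k, Atp5o), 4 without the 4 arrays of highest beta-actin 3′ to 5′ ratio (Sdhd, Cyc1, Atp5k, Atp5e), and 5 without low fat day 3 replicate 5. That ratio, a measure of RNA integrity, was 0.10 to 0.37 on the log2 scale on high fat at day 3, against -0.04 to 0.23 on low fat, and its part in the result was not tested beyond leaving these arrays out.

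The genes of slow-twitch fibres moved with the diet over the same arrays. The mean log2 level of 10 slow fibre genes was 8.39 to 10.77 on high fat at day 3, against 4.34 to 7.53 on low fat. All 10 rose, by a median of 4.37, against 7.99% of all genes tested that rose. Tnni1 and Tnnt1, the slow fibre troponins I and T, rose by 5.25 ± 0.65 and 5.48 ± 0.79 (adjusted p = 1.33e-05 and 7.40e-05). The mean over the 34 subunit genes was 11.23 to 11.29 on high fat, against 11.04 to 11.19 on low fat. Within the low fat day 3 group, replicates 2, 4 and 5 were the lowest in both means, with slow fibre means of 4.88, 4.61 and 4.34 and subunit means of 11.10, 11.06 and 11.04. The high fat day 3 group did not show this order. Its replicate 2 had the lowest slow fibre mean (8.39) and the highest subunit mean (11.29). Its replicate 3 had the lowest subunit mean (11.23) at a slow fibre mean of 9.95. The relation of the 2 means within groups was not tested. With the slow fibre mean added to the fit 0 of 34 passed at day 3, their median change was 0.04, and Sdhd was at 0.19, Cyc1 at 0.14 and Atp5k at 0.16. In that fit 17 of the 5793 genes passed (0.293%), and since the slow fibre mean did not overlap between diets, the diet and the slow fibre mean could hardly be told apart in it. Of 12 fast fibre genes, 2 rose at day 3 (16.7%, against 7.99% of all genes tested) and the median change was -0.0036. The mean log2 level of these 12 was 12.82 to 12.89 on high fat, against 12.53 to 12.78 on low fat. It did not overlap between diets either.

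**Figure D3:**
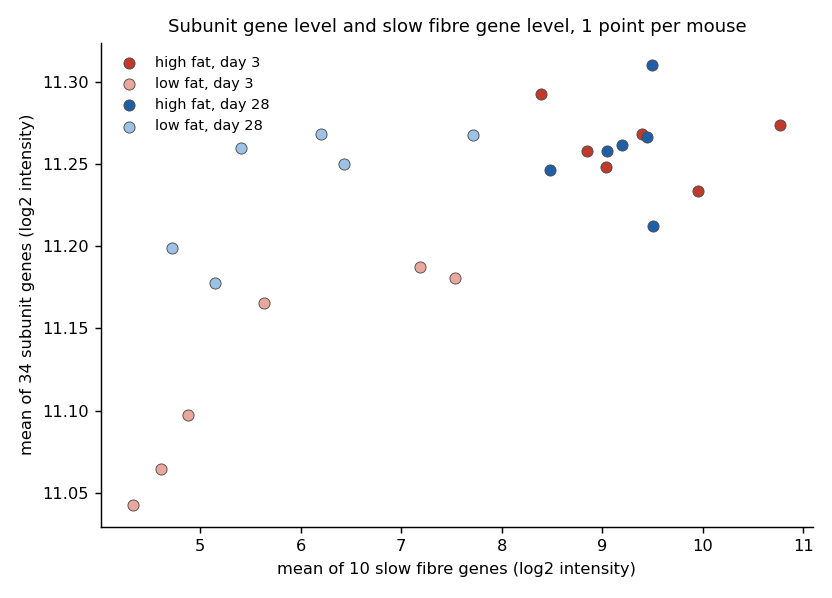
Mean log2 level of the 34 tested subunit genes (vertical) against the mean of 10 slow fibre genes (horizontal) in each of the 24 mice, by diet and day. The high fat mice lie at slow fibre means of 8.39 to 10.77 and the low fat mice at 4.34 to 7.71, with the lowest subunit means in 3 low fat day 3 mice of low slow fibre mean. Among the high fat day 3 mice, the one of lowest slow fibre mean (8.39) had the highest subunit mean (11.29).

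Genes of endothelial cells and of smooth muscle and pericytes differed by diet at day 3 as well. Of 9 endothelial genes 5 rose (55.6%, against 7.99% of all genes tested, median 0.42), and of 5 genes of smooth muscle and pericytes 3 rose (60%, median 0.41). Of 8 macrophage genes only 1 fell (12.5%, against 6.87% of all genes tested, median -0.50). In pieces of whole muscle, fewer cells of a type and less RNA per cell cannot be told apart, and the part of these cells in the subunit genes' rise was not tested.

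After 28 days, 3 of the 34 genes passed the test: Cox6a1 and Cox8a were lower on high fat, each an isoform of most tissues other than striated muscle, and Sdhb was higher. The share that rose was 1 of 34 (2.94%, against 5.35% of all genes tested) and the share that fell 2 of 34 (5.88%, against 7.18%), so the counts stood near or under the background. At an unadjusted p under 0.05, 7 were higher (20.6%, against 12.2% of all genes tested) and 2 lower (5.88%, against 12.7%). The fitted change was positive for 28 of 34 (82.4%, against 52.1%), with a median of 0.08, against 0.01 over all genes tested.

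Cox6a1 had log2 levels of 9.64, 9.98 and 10.23 on high fat at day 28, against 10.52, 11.16 and 11.52 on low fat. All 6 high fat mice lay below every low fat mouse, and the gene fell by 1.08 on the log2 scale (SE 0.19, 95% confidence interval -1.48 to -0.68, adjusted p = 0.000623 in limma), a change of -52.7%. Cox8a, the dimmer probe set, had 5.43, 5.79 and 5.86 on high fat, against 6.03, 6.49 and 6.97 on low fat. The groups did not overlap here either, and it fell by 0.74 (SE 0.18, interval -1.11 to -0.37, adjusted p = 0.00701), a change of -40.1%. Without the 4 arrays of highest beta-actin ratio, Cox8a was at -0.64 (adjusted p = 0.0513). Among the 34 these were also the most variable genes between mice of a group, the only ones with a within-group SD over 0.3, against a median SD of 0.0874 over the 34 and 0.189 over all genes tested.

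Sdhb had 12.27, 12.29 and 12.34 on high fat at day 28, against 12.07, 12.10 and 12.19 on low fat. All 6 high fat mice were above every low fat mouse, and it rose by 0.18 ± 0.06 (adjusted p = 0.0420), or 13.1%, but it passed in only 17 of 33 settings. Most of these 17 left out 1 day 3 mouse, which leaves the day 28 difference itself unchanged. With 1 day 28 mouse left out, Sdhb passed only without low fat replicate 3. The limma adjusted p was 0.0573 to 0.0845 without any other day 28 mouse. Sdhd and Cox5b, which encodes subunit 5b of complex IV, also had groups that did not overlap, at 0.13 ± 0.05 (adjusted p = 0.122; 10.01, 10.07 and 10.17 on high fat, against 9.82, 9.98 and 10.01 on low fat) and 0.14 ± 0.06 (adjusted p = 0.138) without passing. That makes 3 of 34 higher without overlap (3.49% of all genes tested) and 2 of 34 lower (4.56%). The genes that led at day 3 showed smaller fitted differences: Cyc1 had 11.79, 11.82 and 11.86 on high fat, against 11.69, 11.74 and 11.81 on low fat (0.07 ± 0.05, adjusted p = 0.364). Atp5k had 11.40, 11.49 and 11.67 on high fat, against 11.29, 11.40 and 11.55 on low fat (0.10 ± 0.06, adjusted p = 0.284), and Atp5o differed by 0.02 ± 0.07 (adjusted p = 0.919). The marker Cox4i1, at 12.52, 12.56 and 12.59 on high fat, against 12.43, 12.50 and 12.54 on low fat, differed by 0.06 ± 0.04 (adjusted p = 0.412).

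By complex, the median change at day 28 was 0.13 in complex II (1 of 4 rose), 0.10 in complex III (0 of 7), 0.05 in complex IV (0 of 12 rose, 2 fell) and 0.08 in complex V (0 of 11). Of all genes tested, 5.35% rose and 7.18% fell. The slow fibre mean was 8.48 to 9.50 on high fat, against 4.72 to 7.71 on low fat, with 8 of 10 of its genes higher (80%, against 5.35% of all genes tested). The subunit mean was 11.21 to 11.31 on high fat, against 11.18 to 11.27 on low fat. These ranges overlapped, unlike those at day 3. With the slow fibre mean added to the fit 0 of 34 passed, Cox6a1 was at -1.09 (adjusted p = 0.153), Cox8a at -0.65 (adjusted p = 0.507) and Sdhb at 0.02 (adjusted p = 0.981). The slow fibre mean did not overlap between diets here either, and the share of all genes that passed in this fit is not given.

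The muscle isoforms of these subunits had positive fitted changes at day 28 that did not pass the test. Cox6a2 had log2 levels of 12.32, 12.39 and 12.52 on high fat, against 12.18, 12.26 and 12.38 on low fat (0.12 ± 0.06, adjusted p = 0.239). Cox8b had 12.38, 12.49 and 12.61 on high fat, against 12.27, 12.37 and 12.49 on low fat (0.11 ± 0.06, adjusted p = 0.228). In both genes the groups overlapped.

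Because both isoforms of a subunit are read on the same array, their log2 difference within an array was compared between diets by a two-sided exact permutation test, for 3 pairs at each day, with adjustment over the 6 tests. The difference Cox6a2 minus Cox6a1 was 2.44 ± 0.15 on high fat at day 28, against 1.24 ± 0.39 on low fat (SD, n = 6 each). It was 1.20 ± 0.17 (SE) larger on high fat, with all 6 high fat mice above all low fat mice (exact permutation p = 0.00216, the smallest that 6 against 6 can give, adjusted p = 0.00649). At day 3 it was 1.99 ± 0.38 on high fat, against 1.85 ± 0.52 on low fat (exact permutation p = 0.619). Cox8b minus Cox8a was 6.75 ± 0.18 on high fat at day 28, against 5.90 ± 0.27 on low fat, larger by 0.85 ± 0.13 with no overlap (exact permutation p = 0.00216, adjusted p = 0.00649). At day 3 it was 6.53 ± 0.34 on high fat, against 6.35 ± 0.54 on low fat (exact permutation p = 0.489). Both day 28 differences came mostly from the falls of Cox6a1 (-1.08) and Cox8a (-0.74) given above. Cox6a2 was at 0.12 and Cox8b at 0.11, so these tests are not a result separate from those falls.

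The subunit 7a pair ran the other way. Cox7a1, the muscle isoform, had log2 levels of 11.33, 11.36 and 11.48 on high fat at day 28, against 11.37, 11.54 and 11.60 on low fat (-0.13 ± 0.08, adjusted p = 0.331), and Cox7a2 had 11.86, 12.02 and 12.05 on high fat, against 11.88, 12.01 and 12.12 on low fat (-0.01 ± 0.06, adjusted p = 0.931). Within arrays, Cox7a1 minus Cox7a2 was -0.61 ± 0.06 on high fat, against -0.50 ± 0.07 on low fat, a difference of -0.12 ± 0.04 (exact permutation p = 0.00866, adjusted p = 0.0173). The groups overlapped, and after quantile normalization the difference was -0.09 and no longer passed. At day 3 it was -0.78 ± 0.19 on high fat, against -0.57 ± 0.12 on low fat, a difference of -0.21 ± 0.09 (exact permutation p = 0.0346, adjusted p = 0.0519). Cox4i2 was below the filter, so the subunit 4 pair was not tested.

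**Figure D4:**
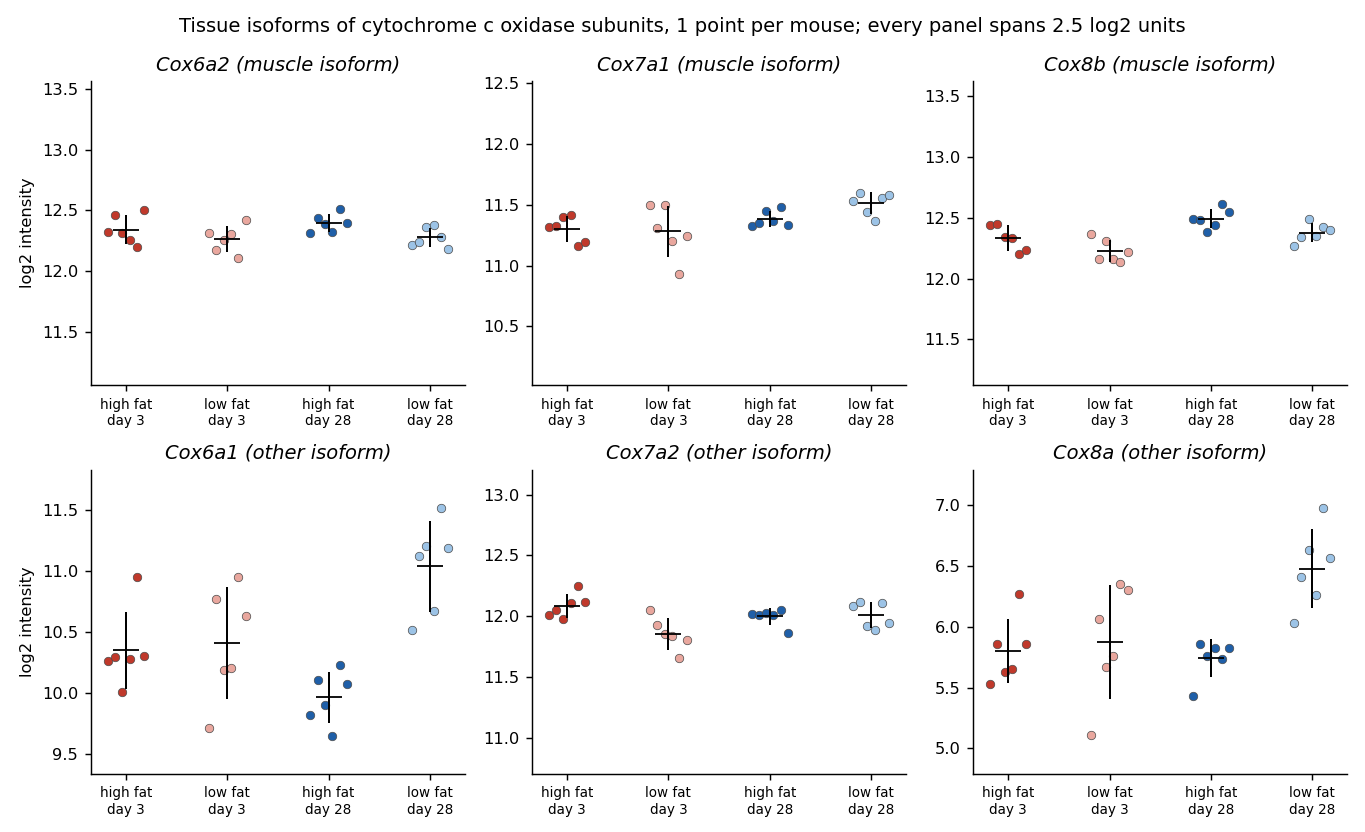
Log2 level of the muscle isoforms Cox6a2, Cox7a1 and Cox8b and of their partners Cox6a1, Cox7a2 and Cox8a in each mouse, high fat left of low fat at each day, 1 point per mouse with group mean and SD. At day 28 the high fat mice lie below all low fat mice for Cox6a1 and Cox8a and overlap them for the other genes.

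At day 28 most of the fat cell genes read were lower on high fat, as were Cox6a1 and Cox8a. The mean log2 level of 7 adipocyte genes (Adipoq, Cidec, Retn, Pck1, Fabp4, Car3 and Lipe, of which Car3 is also a muscle gene) was 6.57 to 8.03 on high fat at day 28, against 9.17 to 10.57 on low fat, and 6 of the 7 fell. Of all genes tested, 7.18% fell at day 28. At day 3 the adipocyte mean was 6.87 to 9.89 on high fat, against 7.60 to 10.01 on low fat, and 3 of the 7 fell (42.9%, against 6.87% of all genes tested) and 1, Car3, rose. Cox6a1 and Cox8a did not fall with them at day 3, at -0.06 and -0.08. Adipoq, the adiponectin gene, was at 7.19 to 9.32 on high fat at day 28, against 10.19 to 11.71 on low fat, so no group was without it. The high fat mouse with the highest adipocyte mean at day 3, replicate 5 at 9.89, also had the highest Cox6a1 of its group, 10.95. All 8 macrophage genes fell at day 28 too (against 7.18% of all genes tested, median -1.15). Of 3 tested brown fat genes, Ucp1 and Cidea were at 2.09 to 2.44 and 1.98 to 2.84 on high fat at day 28, against 3.02 to 7.47 and 6.32 to 8.76 on low fat. Cpt1b, the carnitine palmitoyltransferase of muscle and brown fat, went the other way and rose by 0.50 ± 0.08 at day 28 (adjusted p = 0.000213) and by 0.32 ± 0.08 at day 3 (adjusted p = 0.00966).

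Within groups of 6 mice, Cox6a1 and the adipocyte mean correlated at a Pearson r of 0.935 on high fat and 0.953 on low fat at day 3, and of 0.780 on high fat and 0.968 on low fat at day 28. Spearman's rho was 0.771, 0.943, 0.771 and 1 in that order. Over the 8 relations computed for both genes, the adjusted permutation p for r was 0.0400, 0.0370, 0.0593 and 0.0111, and for rho 0.137, 0.0444, 0.137 and 0.0111. Without the 2 mice farthest from the median adipocyte mean, r was 0.681, 0.920, 0.713 and 0.990. For Cox8a, r was 0.836 on high fat and 0.955 on low fat at day 3, and 0.389 on high fat and 0.950 on low fat at day 28, with rho of 0.429, 0.829, 0.143 and 1. The adjusted permutation p for r was 0.117, 0.0389, 0.392 and 0.0111, and for rho 0.479, 0.117, 0.803 and 0.0111. Without the 2 farthest mice, r was -0.46, 0.761, -0.11 and 0.994, so the high fat values of Cox8a rest on those mice. No such r was computed for the other subunit genes or for all genes tested. Whether the relation is particular to Cox6a1 and Cox8a was not tested.

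With the adipocyte mean as a covariate in limma, the difference at day 28 was 0.03 for Cox6a1 (adjusted p = 0.966) and 0.20 for Cox8a (adjusted p = 0.737), and 0 of 34 passed. At day 3 the same fit put Cox6a1 at 0.46 (adjusted p = 0.0113), higher on high fat, and called 6 of 34, Sdhd, Cyc1, Uqcr10, Cox6a1, Cox7a2 and Atp5k. The adipocyte mean did not overlap between diets at day 28, so in that fit the diet and the adipocyte mean are hard to tell apart. The share of all genes that passed with this covariate is not given.

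**Figure D5:**
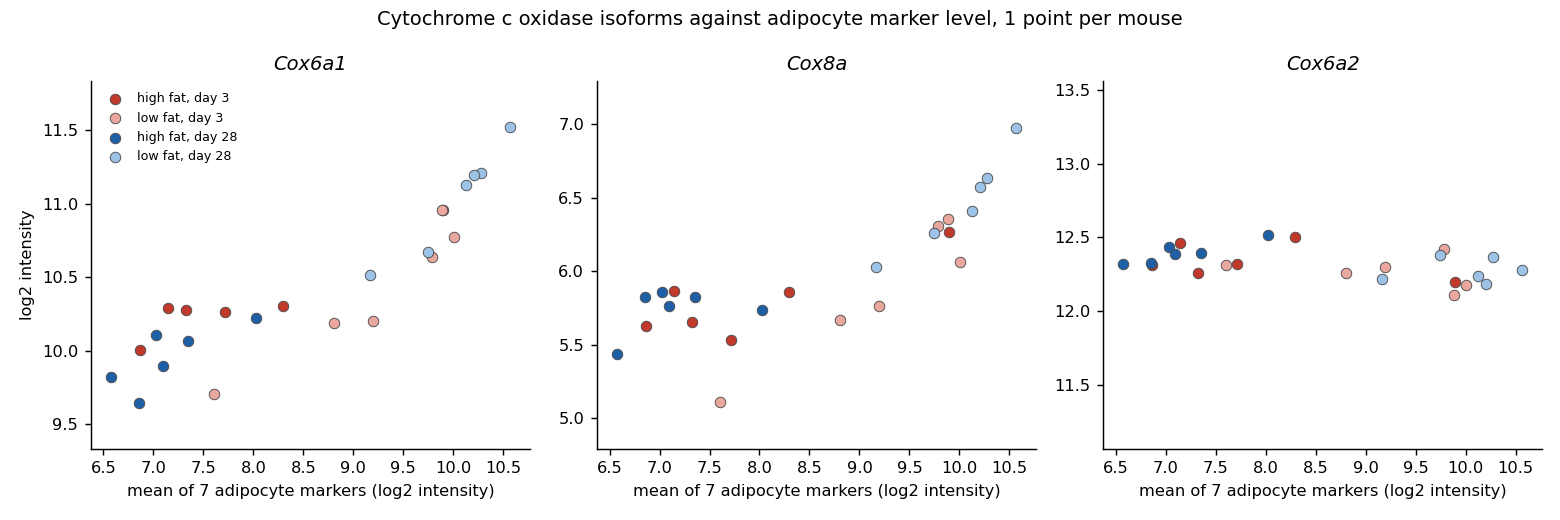
Log2 level of Cox6a1, Cox8a and Cox6a2 (vertical, 1 panel each) against the mean log2 level of 7 adipocyte genes (horizontal) in each of the 24 mice, by diet and day. Within each low fat group Cox6a1 and Cox8a were higher in mice of higher adipocyte mean (r 0.950 to 0.968), and the high fat day 28 mice lie at adipocyte means of 6.57 to 8.03. No r was computed for Cox6a2.

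The diet effect at day 28 was set against that at day 3 by an interaction term. None of the 34 passed (0 of 34, against 1.38% of all genes tested), with 0.673% of all genes tested called higher and 0.708% lower. Among the 34, 6 had an unadjusted p under 0.05 (17.6%), near the 18.8% of all genes tested. In all 6 the effect was smaller or more negative at day 28, against 9.74% of all genes tested in that direction. Cox6a1 came nearest, at -1.02 ± 0.27 (adjusted p = 0.0588), and Cox8a was at -0.66 ± 0.25 (adjusted p = 0.162). Thus the rises seen at day 3 and missed at day 28 were not shown to differ between the days. Leaving out high fat day 3 replicate 3, low fat day 3 replicate 2 or 5, or low fat day 28 replicate 1 brought Cox6a1 past the threshold, with adjusted p-values of 0.0459, 0.0465, 0.0343 and 0.0382.

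Day 28 was also compared with day 3 within each diet, where age and set of animals went with time. On high fat 0 of 34 passed in limma (against 0.552% of all genes tested), with 3 at an unadjusted p under 0.05 (8.82%, against 14.4% of all genes tested), 2 higher and 1 lower. On low fat 0 of 34 passed (against 0.345%), with 14 at an unadjusted p under 0.05, all higher at day 28 (41.2%, against 9.77% of all genes tested higher and 6.87% lower). Cox6a1 was at 0.63 ± 0.19 (adjusted p = 0.124) and Cox8a at 0.60 ± 0.18 (adjusted p = 0.118) on low fat. No gene of the 34 had day groups without overlap, on high fat (against 0.863% of all genes tested higher and 0.967% lower) or on low fat (0.794% and 0.518%). For both genes 4 of 6 low fat mice at day 28 lay above every low fat mouse at day 3. The median change over the 34 was 0.08 on low fat and 0.01 on high fat, beside 0.01 over all genes tested in each.

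Other lists of genes of the respiratory chain were read beside the same background. Of 33 tested genes listed for complex I by their Nduf symbols alone, Ndufa4 among them, 12 rose and none fell at day 3 (36.4%, against 7.99% of all genes tested, median 0.12). They were led by Ndufv2 (0.26 ± 0.06, adjusted p = 0.00385), Ndufa2 (0.24) and Ndufb7 (0.24). At day 28, 3 rose (9.09%, against 5.35% of all genes tested), Ndufv1 (0.26), Ndufs1 (0.21) and Ndufb3 (0.19). At day 28, 0 of 26 tested factors that assemble complexes II to IV or assemble or inhibit the ATP synthase passed. Of all genes tested, 5.35% rose and 7.18% fell there. At an unadjusted p under 0.05, 2 of the 26 were lower (7.69%, against 12.7% of all genes tested). At day 3, 3 of the 26 rose (11.5%, near the 7.99% of all genes tested, median 0.15). The 3 were Sdhaf4, an assembly factor of complex II (0.49 ± 0.08, adjusted p = 0.000164), Uqcc2, a complex III assembly factor (0.34 ± 0.07, adjusted p = 0.00202), and Bcs1l, which inserts the Rieske protein into complex III (0.25 ± 0.08, adjusted p = 0.0308).

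Of 10 tested regulators of respiratory genes, Esrrg, an estrogen-related receptor, rose at day 3 (0.88 ± 0.16, adjusted p = 0.000738) and at day 28 (0.80 ± 0.16, adjusted p = 0.00147). Gabpa, the DNA-binding part of GA-binding protein, differed by 0.03 ± 0.11 at day 3 (adjusted p = 0.905) and rose by 0.35 ± 0.11 at day 28 (adjusted p = 0.0415). The coactivator Ppargc1a differed by 0.85 ± 0.35 at day 3 (adjusted p = 0.111) and 0.45 ± 0.35 at day 28 (adjusted p = 0.471). Another 7 tested genes encode other mitochondrial proteins. They were Cs and Mdh2 of the citric acid cycle, the channels Vdac1 and Vdac2 and the carrier Slc25a4. Hspe1 and Timm44, of protein folding and import, made up the rest. At day 3, 0 of the 7 passed (against 7.99% of all genes tested higher and 6.87% lower). There 1 was higher at an unadjusted p under 0.05 (14.3%, near the 15.0% of all genes tested). At day 28, 1 of the 7 passed (14.3%, against 5.35% of all genes tested). This was the malate dehydrogenase gene Mdh2, which rose (0.15 ± 0.04, adjusted p = 0.0225). At an unadjusted p under 0.05, 3 were higher there (42.9%, against 12.2% of all genes tested). The median change of these 7 was 0.05 at day 3 and 0.08 at day 28.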

How the data were processed

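The authors' deposited table gives linear intensity values, 1 for each probe set on each array, from GCRMA, per the submitters' processing notes. That method corrects background from probe sequence, normalizes arrays to one another and combines probes, so folds of dim probe sets depend on its background model. The probe definition, the genome build and the version of GCRMA were not stated there. The number of arrays limits the precision.

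Log2 of the deposited intensity was taken without offset. Of 16361 probe sets, 64 were controls, 14771 had 1 annotated symbol, 589 several and 937 none listed. Of several probe sets of a gene the one of highest mean was kept, which left 14754 genes. Genes over log2 4 on at least 6 of 24 arrays were tested (5793). Group means were fitted over all 24 arrays with limma 3.58.1 in R 4.3.3 (lmFit, eBayes), with two-sided tests, Benjamini-Hochberg adjustment over 5793 genes and calls at an adjusted p under 0.05. Isoform differences were tested with scipy 1.17.1.

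The subunit genes, the other gene lists and the motifs were chosen with earlier results of these data known. Genes were named by rule: those called in a comparison (the 10 of smallest adjusted p where more were called, to which the last was added after its value was seen), the markers Cyc1, Cox4i1 and Sdhb, the isoform pairs, the largest and smallest changes, genes below the filter, and at most 4 genes of another list in a comparison, beside the names that say what the adipocyte, cardiac, brown fat and other mitochondrial lists hold. Atp5a1, Atp5b, Sdha, Sdhc, Cox7a2l and the other subunits of complex III that did not pass were named beyond it, for their roles. Alternatives were quantile normalization, no filter, only the arrays compared, an offset of 8, array weights, the replicate number as a block, the slow fibre or adipocyte mean as a covariate, and arrays left out. Samples of the same replicate number in different groups deviated together in some cases only (r from -0.38 to 0.537), so the numbers did not pair the mice. The labels call the arrays separate mice.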

Additional observations from a re-analysis of the deposited data

Results flagged for a closer look

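In 7 of 136 sets of 6 mice, 1 gene in 1 group each, a single mouse stood apart by Dixon's test, which chance gives in about 1 of 20. Sdhd was at 9.82 in low fat day 28 replicate 5 (9.96 to 10.01 in the other mice), Uqcrc1 at 11.00 in high fat day 3 replicate 5 (11.16 to 11.22), and Cox5b at 12.60 in low fat day 28 replicate 4 (12.76 to 12.80). Cox7a2 was at 11.86 in high fat day 28 replicate 6 (12.01 to 12.05), Cox8a at 5.43 in high fat day 28 replicate 1 (5.74 to 5.86) and Atp5j at 11.56 in high fat day 28 replicate 5 (11.31 to 11.40). Cox6a1 was at 10.95 in high fat day 3 replicate 5 (10.01 to 10.30), the mouse with the highest adipocyte mean of its group (9.89).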

How the results depend on the processing

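At day 3, 11 of the 34 genes were called in the fit reported, and the count was 7 with no filter, 4 with only the arrays compared, 6 with the adipocyte mean as a covariate, 0 with the slow fibre mean, 4 without the 4 arrays of highest beta-actin ratio, and 5 to 15 when 1 array was left out, 5 without low fat day 3 replicate 5. At day 28, 3 of the 34 were called, and the count was 0 with either covariate, 1 without those 4 arrays (Cox6a1), and 2 to 5 when 1 array was left out, 5 without low fat day 28 replicate 3. For the interaction (0 in the fit reported) it was 1 with array weights (Cox6a1) and 0 to 1 when 1 array was left out, and for day 28 against day 3 on low fat (0) it was 2 with array weights. With the replicate number as a block, 2 passed in the interaction and 2 in day 28 against day 3 on low fat, Cox6a1 and Cox8a in both, and the samples share only a number. Cox7a1 minus Cox7a2 was -0.24 at day 3 and -0.088 at day 28 after quantile normalization, which called the day 3 difference and lost that at day 28. With the adipocyte mean as a covariate 3 signs turned, to 0.46 for Cox6a1 at day 3 and to 0.032 for Cox6a1 and 0.20 for Cox8a at day 28. The counts of this section stand without the share of all genes called in the same fit. They do not tell a change of the 34 from a change over all genes. Apart from the constructions themselves (fewer arrays, more genes, a covariate), the cause was not tested. Leaving out single arrays, other than low fat day 3 replicate 1, was chosen after seeing the data.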

Other observations

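Cox6b1, which encodes subunit 6b of complex IV, varied least between mice of a group among the 34 genes (SD 0.0424). The median within-group SD was 0.0874 over the 34. Over the 360 tested genes of mean log2 level over 10, which include most of the 34, it was 0.101.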
